A study of Rattus norvegicus with 15 samples.

Results

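Egr2, Klf6 and Ier3 are immediate early genes, and each was read by 1 probe of a rat microarray. The members were the probes whose symbol in the platform's gene table is Egr2, Klf6 or Ier3, which gave 3 genes among 401 genes with a probe of a single symbol and 26857 probes in all. All 3 probes carried a value on all 15 arrays. The study profiled kidneys of male Wistar/ST rats, 8 weeks old, after cisplatin, a platinum chemotherapy drug that injures the proximal tubule. Its 5 groups of 3 arrays were proximal tubules after saline, 2 mg/kg or 10 mg/kg, and whole kidneys after 10 mg/kg or saline. Drug (0.5 mg/mL) or an equal volume of saline was injected into the peritoneum, and tubules were picked under a microscope before RNA extraction. How long after injection the tissue was taken was not given in the sources used here. Whether an array stands for 1 animal or a pool is not stated in the labels, and p-values therefore reflect array-to-array spread, which may be technical.

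Immediate early genes are transcribed within minutes of a stimulus from factors already present in the cell, without new protein synthesis. Growth factors, stress kinases and cytokines switch them on, largely through mitogen-activated protein kinases, serum response factor and NF-kB, and their messages are usually short-lived. Egr2, also called Krox20, is a zinc finger transcription factor best known in mice for its part in hindbrain patterning and in Schwann cell myelination. Klf6 is a zinc finger factor of the Krüppel-like family that binds GC-rich promoters, and Ier3, also called IEX-1, is a small protein that modulates cell survival and the ERK and NF-kB pathways.

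In RefSeq on assembly GRCr8, Egr2 spans chr20:21050149-21055201, Ier3 spans chr20:2933173-2934377 and Klf6 spans chr17:69449483-69458478. A promoter sequence was matched for Egr2 and Klf6 by gene symbol, as the first window listed for each. The 250 bases before the start are shown because both hold the CArG box, the element bound by serum response factor, printed in capitals. The Egr2 window (chr20:21054442-21054691, minus strand) lies inside the annotated span of its gene, and the Klf6 window is chr17:69458479-69458728, minus strand.
Egr2: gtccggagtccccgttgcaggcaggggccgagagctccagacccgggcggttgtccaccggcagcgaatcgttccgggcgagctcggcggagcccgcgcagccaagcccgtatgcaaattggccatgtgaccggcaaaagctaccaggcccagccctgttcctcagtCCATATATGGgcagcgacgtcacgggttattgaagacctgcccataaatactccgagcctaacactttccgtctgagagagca
Klf6: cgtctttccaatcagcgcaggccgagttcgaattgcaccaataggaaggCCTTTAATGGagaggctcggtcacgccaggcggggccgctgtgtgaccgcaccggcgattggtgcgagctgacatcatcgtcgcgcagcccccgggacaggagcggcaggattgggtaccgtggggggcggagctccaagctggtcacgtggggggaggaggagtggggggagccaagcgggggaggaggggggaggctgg
The box lay 83 to 74 bases before the start of Egr2 and 201 to 192 bases before that of Klf6. Of 33469 RefSeq promoter windows of this length, 1.497% held a CArG box on either strand. TGACG, the core of the cyclic AMP response element, occurred once in Egr2 and not in Klf6 (18.2% of windows), and CCAAT occurred once in Egr2 and 4 times in Klf6 (34.0% of windows). NF-kB sites (6.33% of windows), TGANTCA, the AP-1 site (6.34%), and GCGNGGGCG, the Egr site (4.29%), were not in either window. Both strands were searched for each motif, no match overlapped a CArG box, and a match is a run of letters, not evidence of binding.

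The platform measures 1 chemiluminescent intensity per probe, and levels below are log2 of that signal after quantile normalization. Array medians ran from 201 to 470 before normalization. Arrays correlated at 0.857 to 0.962 within groups and at 0.763 to 0.943 between groups, and saline kidney replicate 3 had the lowest mean correlation with the others, 0.813. Of 12 named markers of the first and middle proximal segments (S1 and S2), 7 were higher and 0 lower in saline tubules than in saline kidneys. Of 6 named genes listed as markers of the last segment (S3), 1, Slc7a9, was higher and 4 were lower. Of all tested probes 2.12% were called higher and 1.46% lower in this comparison. No named probe represented glomerular, endothelial, distal, collecting duct, stromal or erythroid markers. In tissue RNA, fewer cells of a type and less RNA per cell cannot be told apart.

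**Figure D1:**
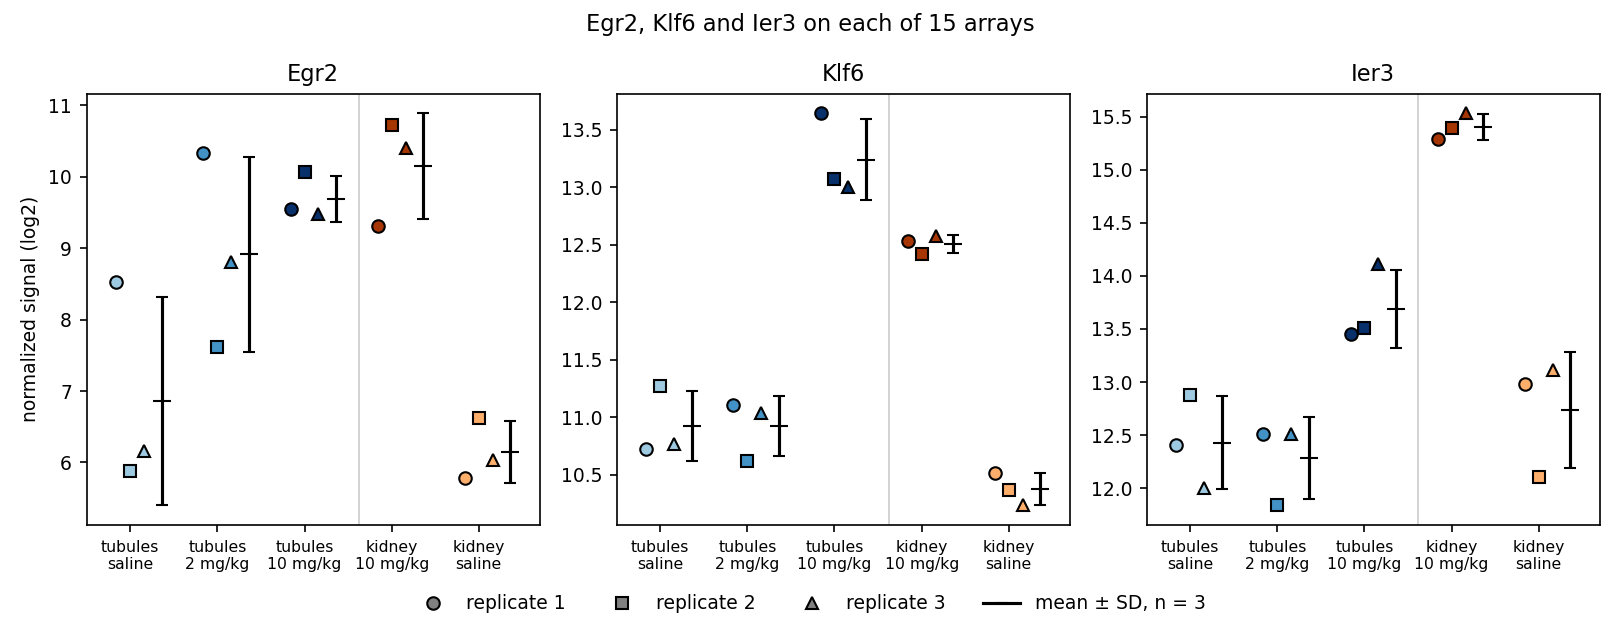
Normalized signal (log2, a separate axis per gene) of Egr2, Klf6 and Ier3 on each of the 15 arrays, with symbols for replicates 1 to 3 and bars for mean ± SD (n = 3). At 10 mg/kg every array of each gene lies above every saline array of the same tissue, and at 2 mg/kg Egr2 spreads from 7.61 to 10.33 while Klf6 and Ier3 overlap saline.

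In tubules at 10 mg/kg, Klf6 and Egr2 rose and Ier3 was higher without passing the test. Klf6 read 13.64, 13.07 and 13.00 on the 3 arrays at 10 mg/kg, against 10.72, 11.27 and 10.76 after saline. The 2 sets were separated by a gap wider than the range within either set. The group means were 13.24 ± 0.35 at 10 mg/kg and 10.92 ± 0.30 after saline (SD, n = 3 each), a 4.99-fold rise (2.32 ± 0.30 SE on the log2 scale, limma adjusted p = 0.000443).

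Egr2 read 9.54, 10.06 and 9.48 on the arrays of tubules at 10 mg/kg, against 8.53, 5.87 and 6.17 after saline. All 3 treated arrays were above all 3 saline arrays, and saline replicate 1 stood well above the other saline arrays. The difference was 2.84 ± 0.72 on the log2 scale, 7.14-fold, with a limma adjusted p of 0.0325 and a 95% interval from 1.29 to 4.39. Without saline tubule replicate 1 it was 3.67 (limma adjusted p = 0.00705). The call was lost without saline tubule replicate 2 (2.35) or 3 (2.49), without 10 mg/kg replicate 1 (2.91), 2 (2.65) or 3 (2.95), and without scaling (2.43). It was also lost with only the 6 arrays compared and with array weights, at limma adjusted p = 0.0745 and 0.127.

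Egr2 lay near the dim end of the arrays after saline, except on saline tubule replicate 1. On saline tubule replicates 1, 2 and 3 it lay at the 55.9, 3.71 and 6.66 percentile of all probes, and on the saline kidney arrays at the 3.08, 15.7 and 5.10 percentile. The files hold no background measure, so these readings are not known to be above background, and the Egr2 folds are ratios of signals.

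Ier3 read 13.45, 13.51 and 14.12 in tubules at 10 mg/kg, against 12.40, 12.88 and 12.01 after saline. The arrays did not overlap, and the difference of 1.26 ± 0.37 on the log2 scale, 2.40-fold, had a limma adjusted p of 0.0631. Its 95% interval ran from 0.47 to 2.05. It passed the threshold with the dimmest probes left out, with only probes present on all arrays, with a trended robust prior, and without saline kidney replicate 2 (limma adjusted p = 0.0391, 0.0478, 0.00482 and 0.0474), and stood at 0.57 without scaling (limma adjusted p = 0.801). Thus 2 of 3 members rose and 0 fell, where 2.48% of all 26601 tested probes were called higher and 3.36% lower, and of the 401 named genes 10.2% were called higher and 46.6% lower. All 3 were separated upward, with every 10 mg/kg array above every saline array, as were 11.0% of all probes, and 0 downward, beside 11.4%.

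At 2 mg/kg no member passed the test in tubules. This comparison shares its saline arrays with the one at 10 mg/kg. Egr2 read 10.33, 7.61 and 8.80 at 2 mg/kg, against 8.53, 5.87 and 6.17 after saline. The lowest of the 2 mg/kg arrays was below the highest saline array, so the groups overlapped. The difference, 2.06 ± 0.72 on the log2 scale or 4.16-fold, had a 95% interval from 0.51 to 3.61 and an unadjusted limma p of 0.0129, with an adjusted p of 0.9999. It was 2.89 without saline tubule replicate 1 and 1.35 without 2 mg/kg replicate 1, and did not pass in either case.

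Klf6 read 11.11, 10.62 and 11.04 at 2 mg/kg, within or just below the range of the saline tubules. The difference was 0.0029 ± 0.30 on the log2 scale, with a 95% interval from -0.64 to 0.64. Ier3 read 12.51, 11.84 and 12.51 at 2 mg/kg, and differed from saline by -0.14 ± 0.37 with an interval from -0.93 to 0.65. These intervals exclude the 4.99-fold rise of Klf6 seen at 10 mg/kg, and the interval of Ier3 lies below its own 10 mg/kg value of 1.26. By limma 0 of 3 members passed, as did 0% of all probes, and 0 of 3 were separated upward or downward, beside 6.55% and 5.59% of probes. By limma 903 of 26601 probes and 1 member, Egr2, had an unadjusted p below 0.05. That is a smaller share of probes than this threshold lets through where nothing differs. The values of the authors' series table gave 23 calls over its 1219 probes, with 0 members among them. How those probes were chosen was not given and may have used these arrays.

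Set against 2 mg/kg in the tubules, 10 mg/kg gave higher Klf6 and Ier3, in a comparison that shares the arrays of both doses with those above. Klf6 was 2.32 ± 0.30 higher on the log2 scale (4.98-fold, limma adjusted p = 0.0004), and its arrays at the higher dose, from 13.00 to 13.64, lay well above those at the lower dose, from 10.62 to 11.11. Ier3 was 1.41 ± 0.37 higher (2.65-fold, limma adjusted p = 0.0343), with arrays from 13.45 to 14.12 against 11.84 to 12.51. Egr2 overlapped between the doses, with 2 mg/kg replicate 1 above every 10 mg/kg array. Its difference of 0.78 ± 0.72 had a 95% interval from -0.77 to 2.33 (limma adjusted p = 0.681).

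The Ier3 call between the doses depended on single arrays and on scaling. It was lost without any 1 of the 6 arrays compared (between 1.18 and 1.53, limma adjusted p between 0.0506 and 0.161), with only those arrays (limma adjusted p = 0.0879), and with median centring (1.02, limma adjusted p = 0.278). Between the doses 2 of 3 members were called higher and 0 lower, where 2.66% and 3.77% of all probes were, and 2 were separated upward and 0 downward, beside 12.8% and 13.0%. The shares among the named genes, which include the members, are not given for this comparison. For tubules at 10 mg/kg minus saline they were 10.2% higher and 46.6% lower.

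**Figure D2:**
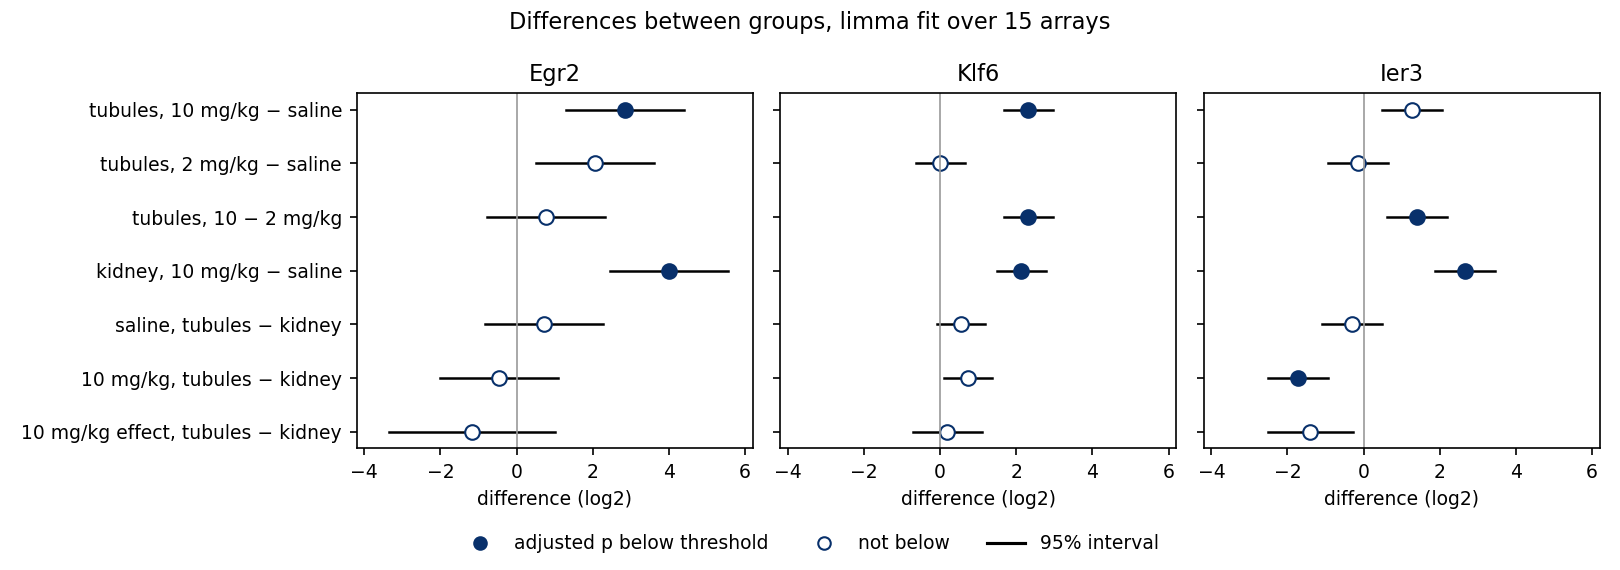
Differences between groups on the log2 scale for each gene, as first group minus second, with 95% intervals from the limma fit over 15 arrays; filled points have an adjusted p below 0.05. All 3 genes are filled for whole kidneys at 10 mg/kg, Klf6 and Egr2 for tubules at 10 mg/kg, and none at 2 mg/kg.

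In whole kidneys all 3 genes rose at 10 mg/kg. Egr2 read 9.32, 10.73 and 10.41 in kidneys at 10 mg/kg, against 5.78, 6.62 and 6.04 after saline. Every treated array was more than 2 log2 units above every saline array. The rise was 4.004 ± 0.72 (16.04-fold, limma adjusted p = 0.00458), and it stayed past the threshold in all 10 alternatives and without any single array.

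Klf6 read 12.53, 12.42 and 12.57 in kidneys at 10 mg/kg, against 10.51, 10.37 and 10.24 after saline. Its arrays were tight in both groups, with SDs of 0.079 at 10 mg/kg and 0.14 after saline. The rise was 2.14 ± 0.30, 4.39-fold (limma adjusted p = 0.0009998).

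Ier3 read 15.29, 15.40 and 15.53 in kidneys at 10 mg/kg, against 12.98, 12.11 and 13.12 after saline. Its treated arrays lay at the 98.6 to 98.8 percentile of all probes. The rise was 2.67 ± 0.37, 6.37-fold (limma adjusted p = 0.000962), and without saline kidney replicate 3, the array that stood apart, Ier3, Egr2 and Klf6 still passed. The 3 of 3 members called higher compare with 2.93% of all probes and 14.0% of the named genes, and the 0 called lower with 3.53% and 46.4%. The 3 of 3 separated upward compare with 13.7% of probes, and the 0 separated downward with 12.7%.

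Scaling bore on Klf6. Without scaling between arrays its calls were lost in tubules against saline (1.69, limma adjusted p = 0.173), between the tubule doses (1.73, limma adjusted p = 0.151) and in kidneys (1.82, limma adjusted p = 0.201). In that setting the median of all probes stood at -0.32 for tubules at 10 mg/kg minus saline, -0.14 between doses and -0.051 for kidneys. The standard error of these Klf6 differences was 0.65 without scaling, against 0.30 in the main fit.

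The C1q genes C1qa and C1qc, the 2 of 21 leukocyte markers with a named probe, were measured beside these rises. Their summed signal ran from 4043 to 9330 in saline tubules, 4640 to 7749 at 2 mg/kg and 10154 to 21614 at 10 mg/kg, and from 9985 to 14639 in kidneys at 10 mg/kg against 3481 to 5226 after saline. By limma 0 of 2 passed in tubules at 10 mg/kg and 0 of 2 in kidneys, with adjusted p of 0.153 and 0.292 in tubules and 0.0753 and 0.0527 in kidneys. Both had a value on every array, the other leukocyte markers had no named probe, and the part of leukocytes in the rises was not tested. Over the same contrasts the named S1 and S2 markers fell in 10 of 12 cases in tubules and 6 of 12 in kidneys, and the S3 markers in 5 of 6 and 6 of 6. Of all named genes 46.6% were called lower in tubules and 46.4% in kidneys, so 6 of 12 is near that share.

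Saline tubules and saline kidneys did not differ for any member by the test. Klf6 read 10.72 to 11.27 in saline tubules and 10.24 to 10.51 in saline kidneys, with no overlap, and the difference of 0.55 ± 0.30 had an interval from -0.093 to 1.19 (limma adjusted p = 0.392). Egr2 differed by 0.71 ± 0.72, interval -0.84 to 2.26, and by -0.13 without saline tubule replicate 1. Ier3 differed by -0.31 ± 0.37, interval -1.10 to 0.48, and turned positive with median centring, without scaling and in the authors' series table. Of the members 0 were called higher or lower, beside 2.12% and 1.46% of all probes, and 1 was separated upward and 0 downward, beside 12.7% and 11.3%. At an unadjusted p below 0.05 limma found 4419 probes and none of the members.

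After 10 mg/kg, tubules had less Ier3 signal than whole kidneys. The Ier3 arrays ran from 13.45 to 14.12 in tubules at 10 mg/kg, against 15.29 to 15.53 in kidneys at 10 mg/kg, 3.28-fold lower in tubules (-1.72 ± 0.37, limma adjusted p = 0.00812). Median centring ended this call (-1.47, limma adjusted p = 0.0845), and so did leaving the arrays unscaled (-1.13, limma adjusted p = 0.417). Klf6 ran the other way, from 13.00 to 13.64 in tubules and from 12.42 to 12.57 in kidneys, with no overlap between arrays. Its difference of 0.73 ± 0.30, interval 0.090 to 1.37, did not pass (limma adjusted p = 0.150). Egr2 differed by -0.46 ± 0.72, interval -2.01 to 1.09. Of all probes 4.72% were called lower and 5.85% higher in tubules, against 1 and 0 of the members. Separation downward held for 13.8% of probes and upward for 14.1%, and for 1 member each.

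The difference between the tissues in the 10 mg/kg effect was tested as an interaction. The Ier3 effect in tubules minus that in kidneys was -1.41 ± 0.52 on the log2 scale, with an interval from -2.52 to -0.29, an unadjusted p of 0.0171 and a limma adjusted p of 0.345. Egr2 had -1.17 ± 1.02 (interval -3.36 to 1.02) and Klf6 0.18 ± 0.42 (interval -0.72 to 1.09). By limma 0 of 3 members passed, where 0.0376% of probes were called. At an unadjusted p below 0.05 there were 2867 probes. Ier3 was called in kidneys and not in tubules, but its interaction did not pass, so its effect is not shown to differ between the tissues.

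Ordered by mean level, Egr2 was highest in kidneys at 10 mg/kg (10.15 ± 0.74), then in tubules at 10 mg/kg (9.69 ± 0.32), tubules at 2 mg/kg (8.91 ± 1.36), saline tubules (6.86 ± 1.46) and saline kidneys (6.15 ± 0.43; SD, n = 3 each). Each neighbouring pair in this order overlapped. Klf6 was highest in tubules at 10 mg/kg (13.24 ± 0.35), followed by kidneys at 10 mg/kg (12.51 ± 0.079), tubules at 2 mg/kg (10.92 ± 0.26), saline tubules (10.92 ± 0.30) and saline kidneys (10.37 ± 0.14). In that order only the 2 mg/kg and saline tubules overlapped. Ier3 was highest in kidneys at 10 mg/kg (15.41 ± 0.12), then in tubules at 10 mg/kg (13.69 ± 0.37), saline kidneys (12.74 ± 0.55), saline tubules (12.43 ± 0.44) and tubules at 2 mg/kg (12.29 ± 0.39). Its last 3 groups overlapped one another.

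The members also differed in spread. The residual SD of Egr2 over the 5 groups was 0.98 on the log2 scale, larger than that of 86.1% of probes. Klf6 had 0.25 and Ier3 0.40, at the 5.22 and 18.5 percentile.

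Other genes of the same pathways were taken from 6 lists of early response, Egr and Klf family, MAP kinase, NF-kB and TNF, Klf6 target and cell death genes. The lists held 18 distinct genes with a named probe beside the members. Of these 10 rose and 3 fell in tubules at 10 mg/kg, 0 were called at 2 mg/kg, and 11 rose and 2 fell in kidneys. Over all tested probes 2.48% were called higher and 3.36% lower in tubules at 10 mg/kg, and 2.93% and 3.53% in kidneys. Over the named genes the shares were 10.2% and 46.6% in tubules and 14.0% and 46.4% in kidneys. The 18 list genes had a median difference of 1.81 on the log2 scale in tubules at 10 mg/kg and 1.496 in kidneys. The medians were 0.027 and 0.025 over all tested probes and -1.28 and -1.24 over the named genes. Every named gene, the members included, lies in the authors' table of 1219 probes. Its rule of choice was not given in the sources used here and may have used these arrays. The counts of list genes and of members called are therefore not independent evidence of direction.

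Of 71 symbols in the list of immediate early and other early response genes, 7 had a named probe, the members among them. The other 4 were Plk2, Hbegf, Cxcl2 and Ccl2. All 4 rose in tubules at 10 mg/kg and 3 of 4 in kidneys, beside 2.48% and 2.93% of all probes called higher. In kidneys Ccl2 had 2.32 ± 0.81 (limma adjusted p = 0.113). Hbegf, which encodes a membrane-anchored ligand of the EGF receptor, rose 15.1-fold in tubules at 10 mg/kg and 12.0-fold in kidneys (limma adjusted p = 0.000133 and 0.000304). It read 12.16, 11.87 and 11.92 in tubules at 10 mg/kg, against 7.78, 8.19 and 8.24 after saline. At 2 mg/kg Hbegf differed by 0.28 ± 0.41, while Plk2, a polo-like kinase, read 10.45, 10.94 and 11.07 against 8.98, 8.09 and 8.63 after saline (2.26 ± 0.56, limma adjusted p = 0.9999). Plk2 at 2 mg/kg thus lay above saline on every array, as Egr2 did not, and neither passed.

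Members of the Krüppel-like family moved in different directions. Klf15, known in liver and muscle for its part in amino acid and glucose metabolism, fell to 11.74 ± 0.081 in tubules at 10 mg/kg, against 13.81 ± 0.33 after saline (SD, n = 3 each, -2.07 ± 0.31 SE, limma adjusted p = 0.00128). It fell by 2.78 on the log2 scale in kidneys (limma adjusted p = 0.000238). Klf5, a factor of proliferating epithelia, rose 5.49-fold in kidneys (limma adjusted p = 0.00806) and had 1.29 ± 0.49 in tubules at 10 mg/kg (limma adjusted p = 0.174). The family list held 25 symbols, of which these and Egr2 and Klf6 had named probes.

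Of 7 NF-kB and TNF pathway genes beside Ier3, 6 rose in tubules at 10 mg/kg and 6 in kidneys. Of all tested probes 2.48% and 2.93% were called higher in these comparisons, and of the named genes 10.2% and 14.0%. The 7 include Cxcl2 and Ccl2, which were already counted among the early response genes. Nfkb2, which encodes the p100 precursor of a NF-kB subunit, rose 3.56-fold in tubules and 2.60-fold in kidneys (limma adjusted p = 0.00167 and 0.0107). Tnfrsf1a, the main TNF receptor, rose 3.59-fold and 2.501-fold, and Lcn2 8.16-fold and 17.8-fold. Ccl20, a chemokine, rose by 4.63 ± 0.59 in tubules. In kidneys Ccl20 rose by 4.71 ± 0.72, where replicate 1 of both groups lacked a value and the saline readings, at the 4.26 and 0.68 percentile of all probes, are not known to be above background. Nfkbie, which encodes an NF-kB inhibitor, rose 2.84-fold in kidneys (limma adjusted p = 0.0255) and had 0.68 ± 0.37 in tubules at 10 mg/kg (limma adjusted p = 0.406).

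Among 3 named genes listed as Klf6 targets, Cdkn1a, the p21 cell cycle inhibitor gene, rose 15.7-fold in tubules at 10 mg/kg and 7.60-fold in kidneys (limma adjusted p = 0.000963 and 0.00761). Its saline kidney readings lay at the 12.2, 8.51 and 22.9 percentile of all probes. On saline tubule replicates 1, 2 and 3 it lay at the 52.4, 9.88 and 52.8 percentile. The dim readings are not known to be above background. Plat, the tissue plasminogen activator gene, rose 3.12-fold and 2.81-fold (limma adjusted p = 0.00796 and 0.0147). Plau, the urokinase gene, fell by 1.76 on the log2 scale in tubules (limma adjusted p = 0.0110) and had -1.24 ± 0.37 in kidneys (limma adjusted p = 0.0637). Whether Klf6 had a part in the changes of these 3 genes was not tested. Of 4 cell death regulators beside Ier3, Tnfrsf1a rose and Aifm1, the apoptosis-inducing factor gene, fell in tubules at 10 mg/kg (-1.47 ± 0.30). In kidneys Tnfrsf1a rose and Bad, a pro-apoptotic Bcl-2 relative, fell by 1.74 on the log2 scale (limma adjusted p = 0.00723). Xiap, a caspase inhibitor gene, had 0.41 ± 0.40 in tubules at 10 mg/kg and 0.23 ± 0.40 in kidneys. Mapk13, a p38 kinase gene and the 1 named gene of the MAP kinase list, had 1.79 ± 0.55 in tubules at 10 mg/kg and -0.63 ± 0.55 in kidneys (limma adjusted p = 0.0809 and 0.575).

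**Figure D3:**
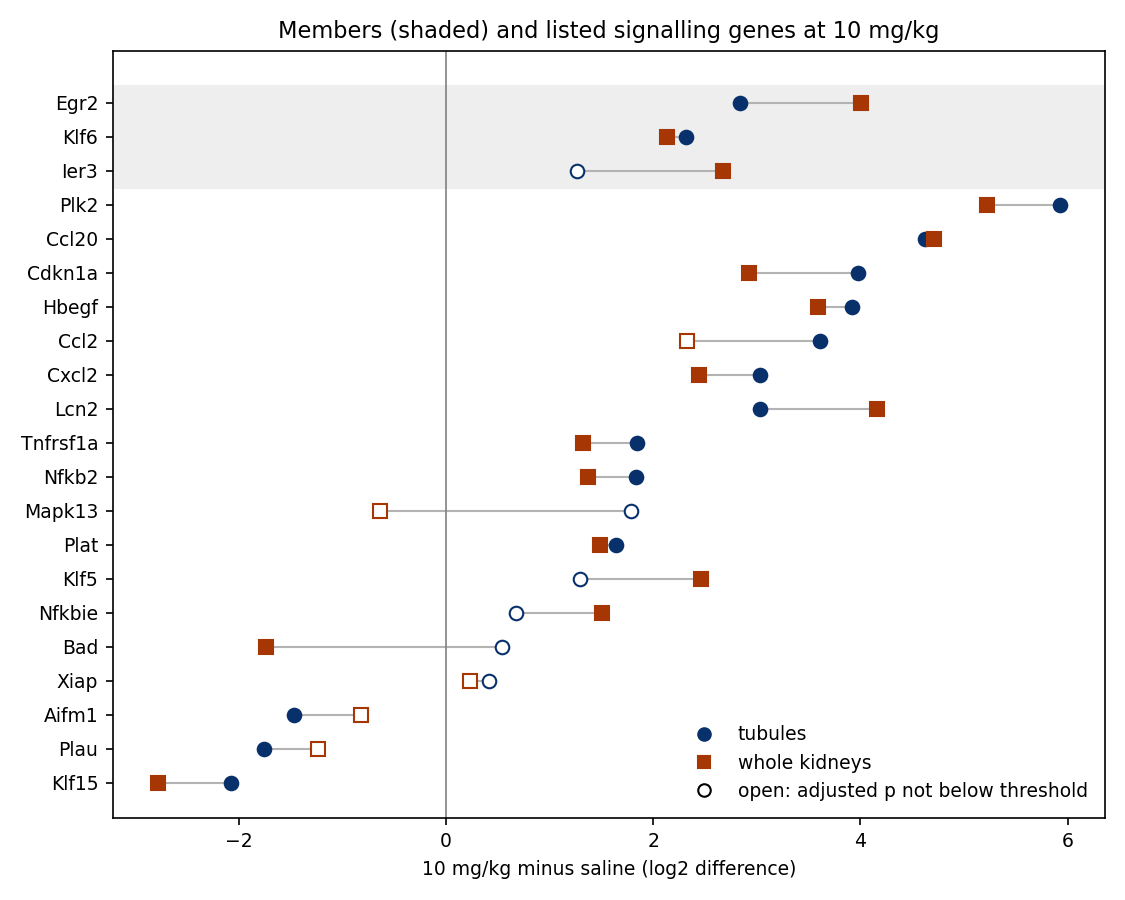
Difference of 10 mg/kg minus saline on the log2 scale in tubules (circles) and whole kidneys (squares) for the 3 members, shaded, and the 18 other list genes; filled symbols have a limma adjusted p below 0.05. Plk2 lies farthest to the right in both tissues and Klf15 farthest to the left.

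The genes most like each member were found by Pearson's r of normalized log2 signal over the 15 arrays among 397 other named genes with all values. The arrays fall into 5 groups, so r mostly follows the group means and is given as a description. Klf6 was most like Havcr1, the gene of the tubular injury protein KIM-1 (r = 0.965), Dynlt1, a dynein light chain gene (0.962), Gnl3, which encodes nucleostemin (0.960), the interferon regulatory factor gene Irf1 (0.956) and the carboxylesterase gene Ces2c (0.950). These 5 genes were picked for following Klf6 over the same arrays, so a shared order of the groups comes with the choice.

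Ier3 was most like Lcn2, the NGAL gene (r = 0.951), Anxa1, an annexin gene (0.945), the potassium channel gene Kcns2 (0.944), Bzw2 (0.932) and S100a6, a calcium-binding protein gene (0.930). For these 5 genes the signal in tubules minus that in kidneys at 10 mg/kg ran from -2.55 to -2.27 on the log2 scale, a description only, since they were chosen for following Ier3 over the same arrays. Egr2 was most like the chemokine gene Cxcl2 (r = 0.846), Plk2 (0.829), the retinoic acid hydroxylase gene Cyp26b1 (0.804), Irf1 (0.775) and Gnl3 (0.751).

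The members were less like one another. Over the 15 arrays Egr2 and Klf6 had r = 0.729, Klf6 and Ier3 0.692, and Egr2 and Ier3 0.599. Once each group's mean was taken away the values were -0.034, 0.26 and 0.063. Among the 397 genes Klf6 ranked 7 in likeness to Egr2, but Egr2 ranked 33 in likeness to Klf6. Ier3 ranked 39 for Klf6 and 32 for Egr2, and for Ier3 Klf6 ranked 38 and Egr2 51.

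**Figure D4:**
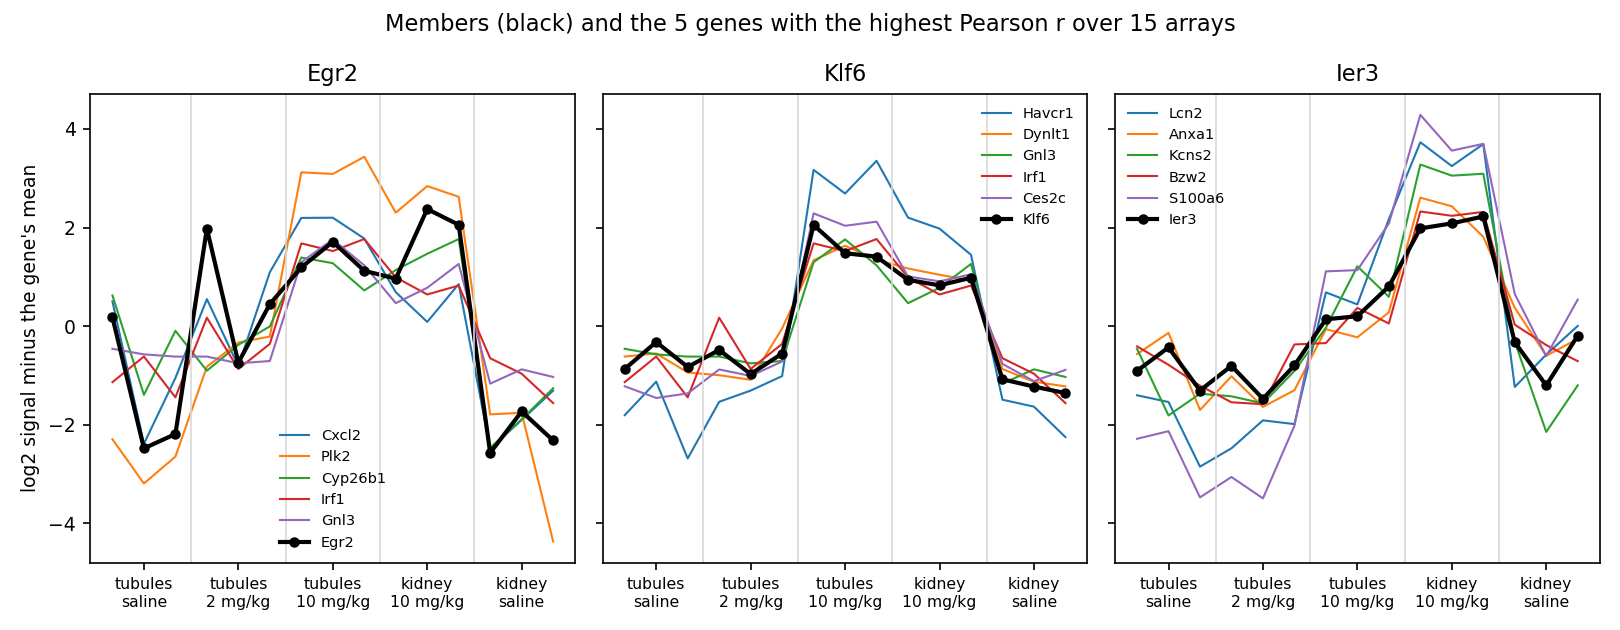
Log2 signal minus each gene's own mean over the 15 arrays, for the members (black) and the 5 named genes with the highest Pearson r to each; lines link arrays in label order only to guide the eye. Klf6 peaks in tubules at 10 mg/kg and Ier3 in kidneys at 10 mg/kg, and Egr2 varies most among arrays of saline and 2 mg/kg tubules.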

How the data were processed

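For each array the authors deposited linear intensity values, 1 per probe, without a background or detection column; the scanner software was not given in the sources used here. In addition, the authors deposited a table of 1219 probes as a ratio, in which each value equals the array's signal over 1 constant per array (relative tolerance 0.000001). Symbols came from the platform's gene table (401 probes with 1 symbol, 2 with several, 26454 with none), and all 401 matched RefSeq GRCr8 by Entrez identifier.

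Signals were taken to log2, quantile normalized and fitted with limma 3.58.1 in R 4.3.3: a mean per group over all 15 arrays, eBayes, two-sided, Benjamini-Hochberg over 26601 probes with at least 2 values per group, threshold 0.05. Errors of differences are standard errors of the fit. The number of arrays limits the precision. No background correction was possible. The fit was tested on simulated data with known changes and no differences in scale between arrays, so that test does not bear on scaling. The text names the members, up to 4 genes per list with the smallest adjusted p in tubules at 10 mg/kg, and the 5 genes most like each member; Nfkbie was named after its value was seen. Members and lists were chosen with earlier results of these data known.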

Additional observations from a re-analysis of the deposited data

How the results depend on the processing

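The 21 differences of the members were recomputed under 10 other settings, and 187 of the 210 values kept their direction and their side of the threshold, as did 295 of 315 values with 1 array left out. Much of this was fixed in advance. Leaving out other probes, fitting only the arrays compared, the trended robust prior and the replicate block can change a p-value but not a difference. The same holds for leaving out an array of a group that is not compared. In those cases only the side of the threshold could change. On the log2 scale, median centring gave Ier3 1.02 for tubules at 10 minus 2 mg/kg, -1.47 for tubules minus kidneys at 10 mg/kg and 0.15 for saline tubules minus saline kidneys. Without scaling the values for tubules at 10 mg/kg minus saline were 2.43 for Egr2 and 1.69 for Klf6. The same setting gave Klf6 1.73 and Ier3 0.77 for 10 minus 2 mg/kg, Klf6 1.82 for kidneys at 10 mg/kg minus saline, Klf6 -0.032 for 2 mg/kg minus saline, Ier3 0.78 between the saline groups, Egr2 0.057 and Ier3 -1.13 for tubules minus kidneys at 10 mg/kg, and Klf6 -0.12 for the interaction. That setting moved the median of all probes by 0.61 between the saline groups. The authors' series table gave Ier3 0.17 between the saline groups. Ier3 in tubules at 10 mg/kg minus saline passed at 1.26 without the dimmest probes, with only probes on all arrays and with the trended robust prior. With only the arrays compared Egr2 at 2.84 and, between the tubule doses, Ier3 at 1.41 did not pass. Array weights gave Egr2 2.64 in tubules at 10 mg/kg and Klf6 -0.019 at 2 mg/kg. The cause of these changes was not tested.

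The titles number the replicates 1 to 3 in every group. Of 30 same-numbered pairs 1 had deviations correlated above 0.1 (range -0.13 to 0.13), and 3 of 15 arrays correlated best with their own number, so the numbers were not taken as pairs. With the replicate number as a block, Egr2 in tubules at 10 mg/kg (2.84, limma adjusted p = 0.0513) and Ier3 between the tubule doses (1.41, limma adjusted p = 0.0549) lost their calls, and 1257 probes were called in tubules at 10 mg/kg against 1553 without it.

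With 1 array left out, Egr2 ran from 2.35 to 3.67 and Ier3 from 1.05 to 1.49 for tubules at 10 mg/kg minus saline, Klf6 from -0.095 to 0.18 and Ier3 from -0.36 to 0.081 for 2 mg/kg minus saline, Ier3 from 1.18 to 1.53 between the tubule doses, Egr2 from -0.13 to 1.202 between the saline groups, and Klf6 from -0.019 to 0.36 for the interaction. Probes called in tubules at 10 mg/kg numbered 917 without scaling, 643 with only the arrays compared and 994 without saline tubule replicate 3. In kidneys they numbered 356 without scaling, 675 with median centring, 519 with only the arrays compared and 2628 with the trended robust prior. Called probes were 129 higher and 788 lower without scaling in tubules at 10 mg/kg, against 659 and 894. Against 1711 probes between the tubule doses, array weights gave 3085, the authors' values 956, and leaving out 2 mg/kg replicate 2 or 1 gave 951 and 952. Against 954 between the saline groups, the trended robust prior gave 1643, only the arrays compared 293, and leaving out saline tubule replicate 3 or 2 or saline kidney replicate 3 gave 567, 574 and 570. Against 2813 between the tissues at 10 mg/kg, the series table gave 450, only the arrays compared 977, and leaving out tubule replicate 1 gave 1814. The interaction called 10 probes, from 0 with only the arrays compared to 305 with the trended robust prior.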

Other observations

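Egr2 was highest on replicate 1 among the saline tubule arrays, and so were 4 of the 5 genes most like it. Egr2 read 8.53, 5.87 and 6.17 on replicates 1, 2 and 3, Cxcl2 9.16, 6.27 and 7.60, and Cyp26b1 9.37, 7.35 and 8.65. Plk2 read 8.98, 8.09 and 8.63, and Gnl3 12.97, 12.85 and 12.81. Irf1 read 8.58, 9.10 and 8.28, with replicate 1 between the others. With group means taken away, r with Egr2 over the 15 arrays was 0.665 for Cxcl2, 0.478 for Gnl3, 0.385 for Cyp26b1, 0.203 for Irf1 and 0.144 for Plk2. At 2 mg/kg the highest array was replicate 1 for Egr2 (10.33) and replicate 3 for Cxcl2 (9.75). The 5 genes were chosen for their likeness to Egr2 over these arrays. Over all probes, saline tubule replicate 1 did not stand apart: its mean correlation with the other arrays, 0.887, was the highest of the 15. Why Egr2 read higher on it was not tested.

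With group means taken away, r over the 15 arrays ran from -0.072 (Gnl3) to 0.676 (Irf1) for the 5 genes most like Klf6, and from 0.280 (Bzw2) to 0.820 (S100a6) for the 5 most like Ier3. Of the 5 genes most like each member, 4 for Egr2, 4 for Klf6 and 3 for Ier3 were shared with the lists made without scaling.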
